A study of Mus musculus with 12 samples.

Results

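The enzymes and regulators of cholesterol and fatty acid synthesis were followed as a set of 32 genes in eosinophils of mice with and without Atg5, a gene of autophagosome formation. The rule that lists them uses names and roles and no measured value. The members were nonetheless chosen with earlier results of these data known. All 32 were found among the 53801 genes of the count table, and all 32 passed the filter on low counts in each of the comparisons below. They comprised 6 regulators of sterol-responsive transcription and sterol transport, 7 enzymes of the mevalonate pathway, 9 enzymes from squalene to cholesterol, 3 enzymes that make the fatty acid chain and 7 elongases and desaturases.

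RNA was sequenced from eosinophils of bone marrow and of blood, with 3 libraries for each of 4 groups. All mice carried the Il5 transgene, which is driven by the Cd3d promoter and makes T cells release interleukin 5, and heterozygous eoCre, in which the Cre recombinase is expressed from the eosinophil peroxidase (Epx) locus. In the Atg5-knockout mice Atg5 was flanked by loxP sites, and in the controls it was not, so the deletion is limited to cells that express Epx and every comparison was made on a background of eosinophilia. Bone marrow eosinophils were enriched by removing lymphocytes and neutrophils with antibodies, and blood cells were first separated on Histopaque and freed of red cells by water lysis. The age of the animals is not given in the sources used here.

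Cells sense cholesterol in the membrane of the endoplasmic reticulum. When it is low, Scap carries the membrane-bound transcription factors SREBP-1 and SREBP-2 (the products of Srebf1 and Srebf2) to the Golgi, where they are cut and released to activate genes of sterol and fatty acid synthesis together with the factors NF-Y and Sp1. The Insig proteins hold Scap back when sterols are abundant, and the liver X receptors respond to oxidised sterols by raising Srebf1 and the exporters Abca1 and Abcg1. Eosinophils are short-lived granulocytes that develop in bone marrow from dividing precursors and leave for the blood as postmitotic cells.

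Promoter windows from RefSeq (GRCm38.p6, the build of the count table), each running from 250 bases before to 50 bases after a start site, were matched by symbol to 25 of the 32 members. The stretches below hold boxes of the kinds searched for, with capitals marking only the box of the named kind that lies nearest to the start site. The window of Hmgcs1 is shown because it was the 1 member window with the core of the sterol regulatory element, and the windows of Srebf2, Nsdhl, Mvd, Dhcr7 and Fads2 because these were the 5 of lowest p between genotypes in bone marrow among the members with a window.
Hmgcs1, chr13:119690168-119690268, plus strand, sterol regulatory element TCACNCCAC: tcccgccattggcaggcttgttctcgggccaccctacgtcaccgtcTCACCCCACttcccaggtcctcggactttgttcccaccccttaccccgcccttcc
Srebf2, chr15:82147086-82147186, plus strand, NF-Y box CCAAT read on the opposite strand: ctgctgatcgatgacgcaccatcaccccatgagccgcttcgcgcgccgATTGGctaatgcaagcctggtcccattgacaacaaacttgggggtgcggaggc
Nsdhl, chrX:72918470-72918570, plus strand, NF-Y box read on the opposite strand: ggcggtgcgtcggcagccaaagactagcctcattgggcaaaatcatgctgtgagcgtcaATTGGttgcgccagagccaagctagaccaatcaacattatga
Mvd, chr8:122443397-122443497, minus strand, NF-Y box: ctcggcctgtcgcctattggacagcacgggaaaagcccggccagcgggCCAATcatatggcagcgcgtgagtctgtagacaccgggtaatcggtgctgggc
Dhcr7, chr7:143830117-143830217, plus strand, NF-Y box read on the opposite strand: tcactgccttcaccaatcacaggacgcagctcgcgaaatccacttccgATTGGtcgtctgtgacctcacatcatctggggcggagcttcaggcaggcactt
Fads2, chr19:10101636-10101736, minus strand, Sp1 box GGGCGG: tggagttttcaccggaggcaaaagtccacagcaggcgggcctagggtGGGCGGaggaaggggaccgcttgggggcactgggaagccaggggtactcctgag

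Both strands were searched. The box CCAAT was found in the windows of 20 of the 25 members (80%), against 41.1% of the 27025 genes with a window. GGGCGG was also found in 20 of them (80%, against 38.2% of all genes), and the E-box CACGTG, which SREBP-1 can bind, in 6 (24%, against 8.09%). All 7 enzymes from squalene to cholesterol that had a window held both the NF-Y and the Sp1 box. Acaca and Elovl6 held none of the letters searched. The core TCACNCCAC was found in 1.44% of all genes and in Hmgcs1 alone among the members, 137 bases before the start site, and other spellings of the element were not searched. A match is a description of the letters and not a bound site. No window was printed or searched for Stard4, Fdps, Fdft1, Sqle, Scd1, Scd2 and Fads1.

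Between 18885052 and 30270166 counts fell on genes in each library. The 10 eosinophil marker genes, led by Prg2 and the Ear genes, took 7.84 to 10.004% of the counts in bone marrow and 1.72 to 3.91% in blood, where the granule protein genes Epx and Prg2 were lower and the receptor genes Ccr3 and Siglecf higher than in bone marrow, in both genotypes and past the test. Il5ra, also a receptor gene of this list, went the other way from Ccr3 and Siglecf. Scaled by library size alone, its counts were lower in every blood library than in every bone marrow library. All 10 marker genes were detected in every library. The 16 proliferation genes took 0.242 to 0.340% of the counts in bone marrow and 0.0167 to 0.0280% in blood. The 10 neutrophil genes took 1.51 to 1.91% of the counts in bone marrow and 0.965 to 1.21% in blood, and their part in the values of the members was not tested. Haemoglobin and other red cell genes made up 14.6% of the counts of control blood replicate 1 and at most 1.42% of any other library. The 8 B-cell genes took 0.219% and 0.108% in replicate 1 of Atg5-knockout and of control blood, and 0.0150 to 0.0388% in the other blood libraries. Since these are bulk libraries, fewer cells of a type and less RNA per cell cannot be told apart. Atg5 itself had 30.95, 32.002 and 34.5 CPM (read counts scaled to library size with TMM factors) in Atg5-knockout bone marrow, below the 41.4 to 44.8 CPM of the controls, but its log2 fold change of -0.44 (SE 0.11) did not pass the test (edgeR's adjusted p = 0.157), and counts summed over all exons cannot show whether a floxed exon was lost. In blood the groups overlapped, with 35.97 to 52.2 CPM in the knockout and 39.96 to 58.9 CPM in controls (log2 fold change -0.01).

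The members spanned a wide range of expression. On the TPM scale, which divides counts by gene length and so allows genes to be compared, the level in control bone marrow ran from 143 ± 8.03 TPM (SD, n = 3) for Acly, which makes cytosolic acetyl-CoA from citrate, to 0.266 ± 0.0364 TPM for Scd1, a stearoyl-CoA desaturase. After Acly came Elovl1 at 85.5 ± 10.2 TPM, Scd2 at 71.6 ± 6.83 TPM, Elovl5 at 71.3 ± 6.21 TPM and Srebf2 at 53.6 ± 7.04 TPM. Scd2 and Elovl5 overlapped, as did Srebf2 and Mvd, the next in order, and 7 of the 31 steps between neighbours in this order separated all libraries of one gene from all those of the next. The lowest levels beside Scd1 were those of Lss, the cyclase that makes lanosterol (2.53 ± 0.163 TPM), and Acaca, the carboxylase that makes malonyl-CoA (2.76 ± 0.129 TPM). In control blood Acly was still the highest at 183 ± 9.01 TPM, and Srebf2 followed at 86.9 ± 7.14 TPM. Reads shared with other genes limit some values, since 11 members share exonic bases with another gene. Fdps is uncertain, because 7 processed pseudogenes that match it at 90% identity or more together held 2628 counts against 2160 for Fdps, and so is Fdft1, which shares 774 exonic bases with the highly counted Ctsb on the other strand in a count made without strand. Idi1 is less certain too, since 4 such pseudogenes held 295 counts against 1578 for Idi1. One of them, Idi1-ps1, matched it at 100% identity over its whole length.

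**Figure D1:**
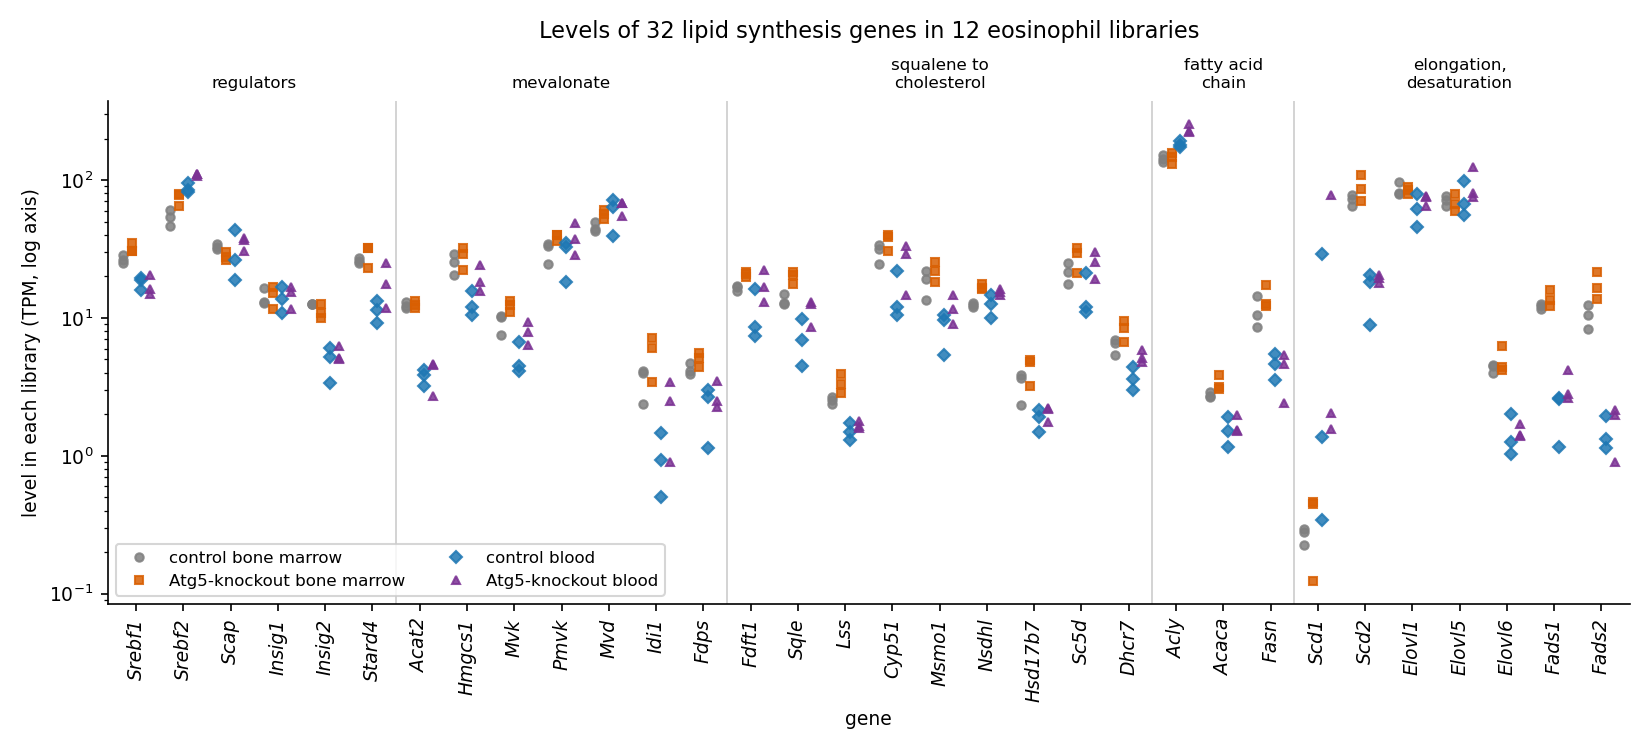
Level of each of the 32 genes (TPM, log axis) in the 12 libraries, with the genes ordered by role and 1 symbol per library. Acly was the highest gene in every group and Scd1 the lowest in bone marrow, while 1 library of each blood group lay far above the others for Scd1.

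The first question was whether eosinophils without Atg5 differ from controls in bone marrow. No member passed the test there. Of all 13781 genes tested, 48 (0.348%) passed an adjusted p of 0.05. The log2 fold change was above 0 for 26 of 32 members, against 50.6% of all genes, and its median was 0.26, against 0.003 for all genes. In 13 members every knockout library lay above every control library, against 9.03% of all genes, and in 2, Scap and Insig2, every one lay below, against 5.51%. Members of a pathway are not independent of each other, and these were chosen with earlier results of these data known. The unadjusted p was under 0.05 for 12 of the members, against 9.67% of all genes. DESeq2, which called 1.42% of all genes, and the fit without a filter, which called 1.71%, each called 3 members, Sqle, Srebf2 and Fads2, all higher. Without control bone marrow replicate 1, edgeR called Srebf2 (log2 fold change 0.53, adjusted p = 0.0435) and Fads2 (0.82, adjusted p = 0.0496), with 1.55% of all genes called.

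Of the regulators, Srebf2, on chromosome 15 from 82147181 to 82205379 (GRCm38), had 215, 236 and 256 CPM in Atg5-knockout bone marrow and 189, 148 and 168 CPM in controls. The groups did not overlap, and the log2 fold change was 0.45 (SE 0.11, edgeR's adjusted p = 0.157). Its paralog Srebf1, which encodes the factor more active on fatty acid genes, had 78.9, 82.1 and 77.7 CPM against 69.8, 62.8 and 64.6 CPM, a log2 fold change of 0.23. These groups did not overlap either. Scap and Insig2, which encode the SREBP escort and a retention protein, went the other way with log2 fold changes of -0.24 and -0.21, and Insig1, the paralog of Insig2, stood at 0.02. Stard4, a sterol carrier, had a log2 fold change of 0.14.

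All 9 enzymes from squalene to cholesterol had a positive log2 fold change, from 0.23 to 0.55 with a median of 0.35. Sqle, squalene epoxidase and a rate-limiting step of the pathway, on chromosome 15 from 59315077 to 59331192, had 45.4, 49.4 and 51.9 CPM in Atg5-knockout bone marrow and 30.4, 31.4 and 35.9 CPM in controls. The groups did not overlap, and the log2 fold change of 0.55 (SE 0.11) had the lowest p of all members, with edgeR's adjusted p = 0.0684. Nsdhl, a dehydrogenase that acts in sterol demethylation, had 21.6, 20.9 and 20.8 CPM against 14.9, 16.2 and 15.4 CPM, a log2 fold change of 0.40 (SE 0.12, edgeR's adjusted p = 0.250). Fdft1, Lss and Dhcr7, the squalene synthase, the lanosterol synthase and the last reductase of the pathway, had log2 fold changes of 0.30, 0.39 and 0.35 with no overlap between groups. The summed level of the 9 enzymes was 159 ± 19.6 TPM (SD, n = 3) in the knockout and 124 ± 13.996 TPM in control bone marrow, with the lowest knockout library at 137 TPM and the highest control library at 133 TPM.

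In the mevalonate pathway, 6 of 7 enzymes had a positive log2 fold change, with a median of 0.28. It was largest for Idi1, the isopentenyl diphosphate isomerase, at 0.63, where the knockout libraries had 5.51, 10.5 and 9.64 CPM and the controls 6.11, 3.71 and 6.26 CPM, so that the groups overlapped. Mvk, Pmvk and Mvd, the kinases and the decarboxylase, had values of 0.37, 0.31 and 0.28 with no overlap, while Acat2, the cytosolic thiolase, stood at -0.01 and Hmgcs1, which makes HMG-CoA, at 0.13.

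Fatty acid genes were more mixed. Fads2, the delta-6 desaturase, on chromosome 19 from 10064164 to 10101503, had 9.61, 13.5 and 11.2 CPM in Atg5-knockout bone marrow and 8.19, 5.55 and 6.93 CPM in controls. This was the largest fold change of any member in bone marrow, 0.69 on the log2 scale (SE 0.18, edgeR's adjusted p = 0.179), without overlap. Its neighbour Fads1, the delta-5 desaturase, from 10182888 to 10196870 on the same chromosome, had 21.6, 22.8 and 19.05 CPM against 18.9, 18.7 and 17.3 CPM, a log2 fold change of 0.16. Acaca and Fasn, the carboxylase and the fatty acid synthase, stood at 0.25 and 0.31, and Acly at -0.01. The elongases Elovl1 and Elovl5 had -0.04 and -0.08, and Elovl6, which extends saturated chains, 0.16. Scd2 had 0.26, and Scd1, with at most 1.01 CPM in any bone marrow library, 0.32 with a standard error of 0.48.

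Other measures were also set side by side between genotypes in bone marrow. The proliferation genes took 0.273 to 0.340% of the counts in the knockout libraries and 0.242 to 0.265% in the controls, without overlap. Their log2 fold changes were all above 0, from 0.10 to 0.38 with a median of 0.20 over 16 genes, and none passed the test. The eosinophil genes took 8.46 to 10.004% against 7.84 to 8.87%, and the red cell genes 0.203 to 0.725% against 0.138 to 0.249%, with overlap between the groups in both. Their part in the values of the members was not tested.

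**Figure D2:**
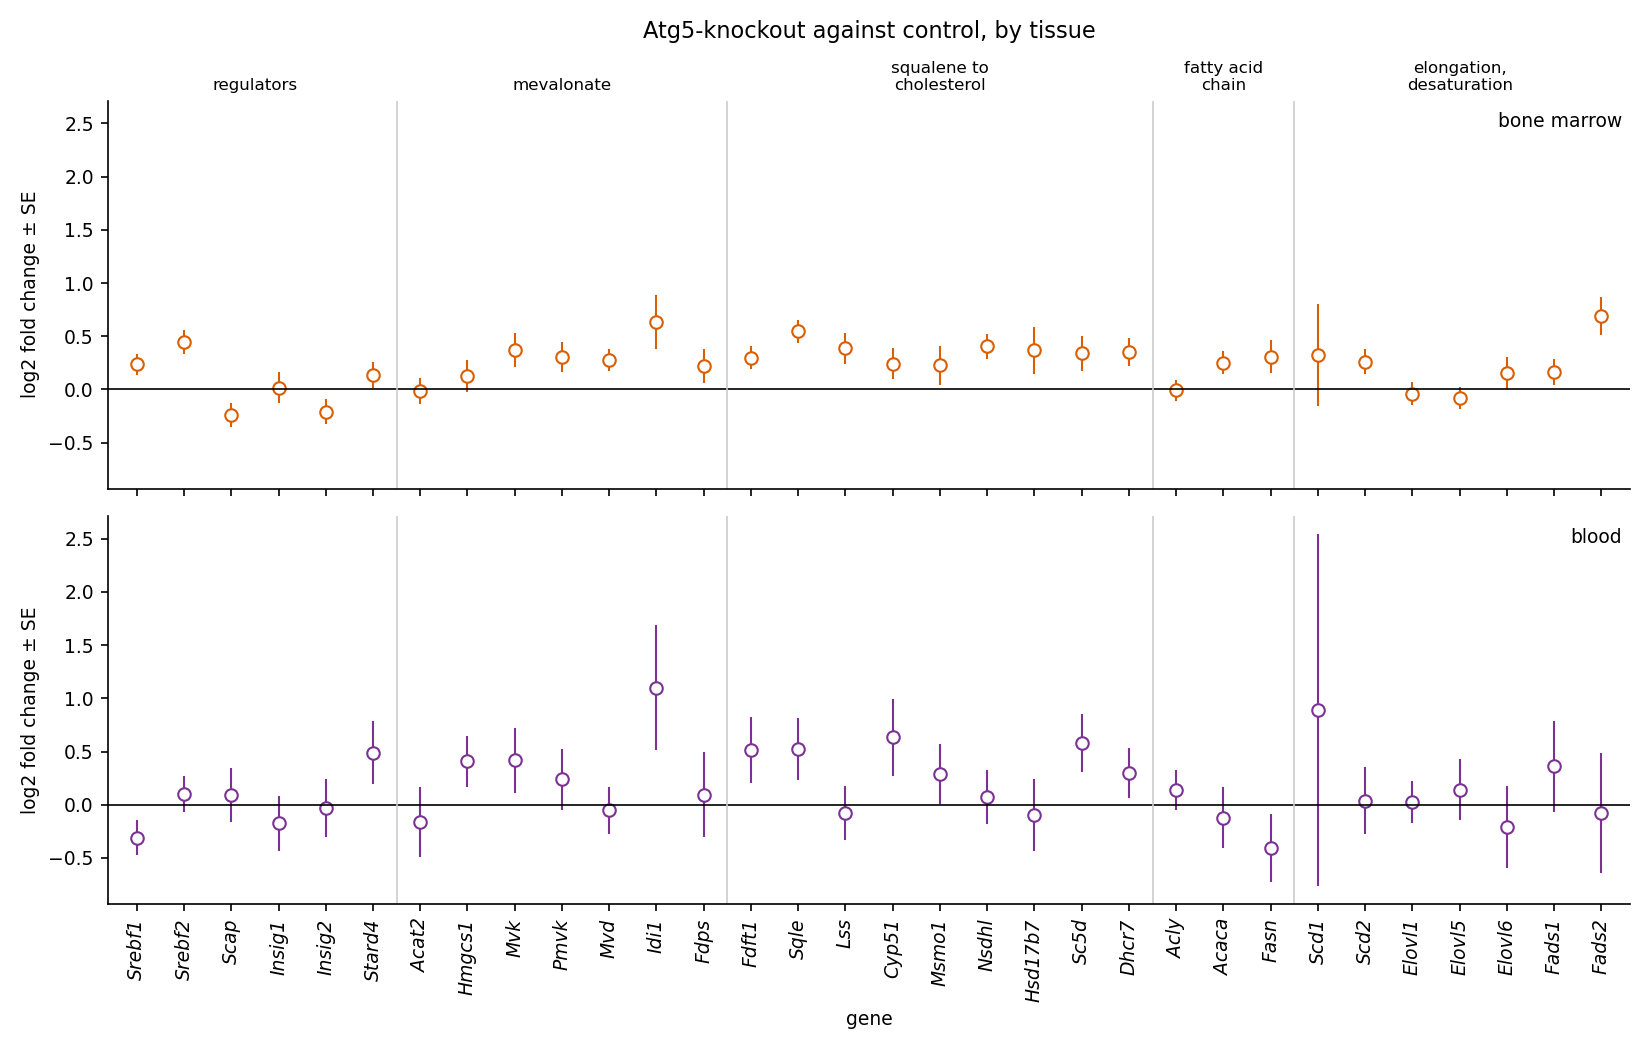
Log2 fold change of Atg5-knockout against control eosinophils for each gene in bone marrow (upper panel) and blood (lower panel), with bars for 1 standard error and 3 libraries a group. No gene passed an adjusted p of 0.05 in either tissue; in bone marrow the 9 enzymes from squalene to cholesterol all lay above 0, and in blood the bars were wider.

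In blood the same comparison gave no call among the members either, and none had an unadjusted p under 0.05, against 2.58% of all genes. Of 13460 genes tested, 5 (0.0371%) passed. Libraries differed more from each other than in bone marrow, with a biological coefficient of variation of 0.365 against 0.146. The fold change was above 0 for 21 members and below 0 for 11, with a median of 0.10 on the log2 scale, against 0.006 for all genes. Without replicate 1 of both genotypes, left out after the data were seen, the median was 0.25. The groups did not overlap for 2 members, against 7.54% of all genes: Dhcr7, higher in the knockout (against 3.25%), and Srebf1, lower (against 4.29%).

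Sc5d, Idi1, Srebf1 and Sqle had the lowest p of the members in blood. Sc5d, the lathosterol desaturase, had 39.0, 70.2 and 58.5 CPM in the knockout and 32.8, 50.3 and 31.3 CPM in control blood, a log2 fold change of 0.58 (SE 0.27), and edgeR's adjusted p was 0.99997 for this and the next 3 genes. Idi1 had 1.30, 5.79 and 4.18 CPM against 1.07, 2.51 and 1.76 CPM, with a log2 fold change of 1.10 (SE 0.58). Within both genotypes replicate 1 was the lowest, and the groups overlapped. Srebf1 was lower in every knockout library, with 47.5, 43.9 and 39.6 CPM against 54.8, 53.6 and 57.0 CPM, a log2 fold change of -0.31 (SE 0.16). Sqle had 19.8, 34.6 and 33.3 CPM against 15.3, 26.7 and 20.4 CPM, 0.52 on the log2 scale (SE 0.29), and the groups overlapped. Dhcr7, with 14.3, 13.4 and 14.2 CPM against 12.7, 12.7 and 9.34 CPM, was the other member without overlap, with a log2 fold change of 0.30. For the enzymes from squalene to cholesterol the median log2 fold change was 0.30, with values from -0.10 to 0.63, and Fasn had the lowest of all members, -0.41.

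Same-numbered blood libraries deviated together, so the members were also set side by side by number. In all 3 pairs 9 members were higher in the knockout (against 14.5% of all genes), Pmvk, Hmgcs1, Idi1, Fdft1, Sqle, Sc5d, Msmo1, Dhcr7 and Scd1, and 3 were lower (against 16.1%), Mvd, Srebf1 and Fasn. With the replicate number as a block no member was called, and the log2 fold changes of Sc5d, Idi1, Srebf1 and Sqle were 0.57, 0.98, -0.31 and 0.52 (edgeR's adjusted p from 0.521 to 0.670).

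Whether the genotype effect differed between tissues was tested by an interaction over the 12 libraries. No member and none of 14712 genes (0%) passed with edgeR. Its unadjusted p was under 0.05 for 740 of the 14712 genes and for 1 of the 32 members. DESeq2 called 15 genes and no member. The member with an unadjusted p under 0.05 was Srebf1, which was higher in the knockout in bone marrow and lower in blood, so that the log2 fold change in blood was lower than in bone marrow by a difference of -0.59 (SE 0.16, unadjusted p = 0.00324, adjusted p = 0.852). The next were Srebf2 (-0.39, SE 0.19), Fasn (-0.76, SE 0.39) and Lss (-0.51, SE 0.26), with edgeR's adjusted p = 0.942 for each.

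Blood and bone marrow differed far more than the genotypes. In control mice 12 members were lower in blood (18% of all 13669 genes tested were) and 4 were higher (against 16.2%), and 2 of the 12, Fads2 and Fads1, were lower by more than 2 on the log2 scale (against 5.19%). In Atg5-knockout mice 15 were lower (24.1% of 13853 genes were) and 3 higher (against 23.5%), with Fads2 and Scd2 lower by more than 2 (against 6.13%). The median log2 fold change of the 32 members was -0.49 in control and -0.55 in Atg5-knockout mice, against -0.003 and -0.01 for all genes. Scaling by library size alone shifted the median of all genes to -0.31 and -0.24 and that of the members to -0.81 and -0.79, and the calls over all genes from 2212 higher and 2466 lower to 1308 and 3906 in control mice, and from 3256 and 3336 to 2258 and 4333 in Atg5-knockout mice. The comparisons share no library, and 8 members were lower in blood in both, which is 66.7% of those called in control mice and 53.3% of those called in Atg5-knockout mice (86.9% and 64.2% over all genes called lower): Acat2, Elovl6, Fads1, Fads2, Fasn, Insig2, Msmo1 and Scd2. Acly, Srebf2 and Scd1 were higher in both.

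**Figure D3:**
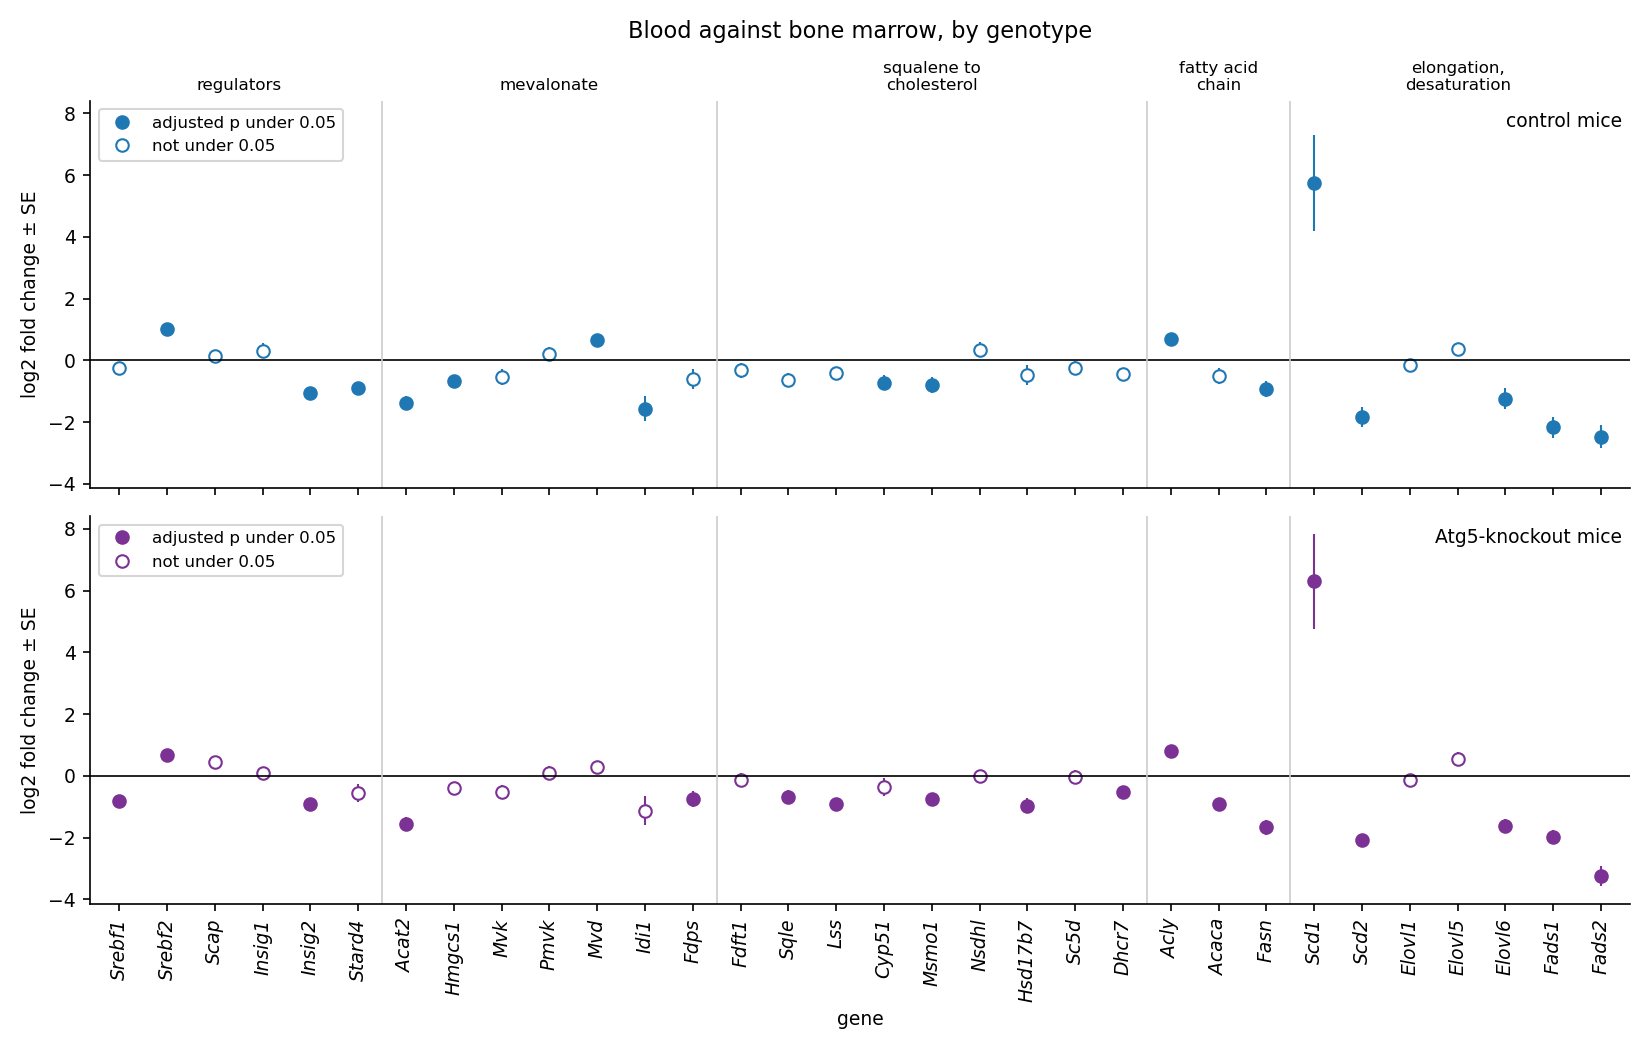
Log2 fold change of blood against bone marrow eosinophils for each gene in control mice (upper panel) and Atg5-knockout mice (lower panel), with bars for 1 standard error, 3 libraries a group and filled circles for an adjusted p under 0.05. Fads1, Fads2, Scd2 and Acat2 lay below -1 in both panels, Srebf2 and Acly above 0, and Scd1 had the widest bars.

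Of the 3 members that fell most in control mice, all were desaturases. Fads2 had 8.19, 5.55 and 6.93 CPM in control bone marrow and 1.78, 0.838 and 1.08 CPM in control blood, a 5.55-fold lower level (log2 fold change -2.47, SE 0.38, edgeR's adjusted p = 0.00156). In Atg5-knockout mice it had 9.61, 13.5 and 11.2 CPM in bone marrow and 1.35, 1.44 and 0.647 CPM in blood, 9.48-fold lower (-3.24 on the log2 scale, SE 0.33, edgeR's adjusted p = 9.91e-05). Fads1 had 18.9, 18.7 and 17.3 CPM against 5.56, 4.41 and 2.15 CPM in control mice (log2 fold change -2.16, SE 0.34, edgeR's adjusted p = 0.00178) and 21.6, 22.8 and 19.05 CPM against 4.04, 6.96 and 4.33 CPM in Atg5-knockout mice (-1.99, SE 0.24, edgeR's adjusted p = 0.000222). Every blood library lay below every bone marrow library for both genes. These enzymes insert the double bonds that turn dietary linoleic and linolenic acid into arachidonic acid and longer polyunsaturated acids.

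Scd2, a stearoyl-CoA desaturase that makes monounsaturated fatty acids, on chromosome 19 from 44293676 to 44306864, fell from 172, 156 and 185 CPM in control bone marrow to 67.5, 48.7 and 25.8 CPM in control blood (log2 fold change -1.83, SE 0.31, edgeR's adjusted p = 0.00270). In Atg5-knockout mice it fell from 176, 245 and 212 CPM to 44.2, 53.0 and 46.5 CPM (-2.07, SE 0.15, edgeR's adjusted p = 1.41e-05), the lowest p of any member. Among the elongases, Elovl6 fell from 11.2, 12.9 and 12.8 CPM to 7.87, 4.01 and 3.57 CPM in control mice (-1.24, SE 0.34, edgeR's adjusted p = 0.0214) and from 12.5, 16.8 and 12.97 CPM to 4.54, 4.35 and 4.23 CPM in Atg5-knockout mice (-1.62, SE 0.21, edgeR's adjusted p = 0.000334). Its paralogs did not pass the test: Elovl1, which extends very long saturated chains, had log2 fold changes of -0.16 and -0.12, and Elovl5, which extends polyunsaturated chains, 0.36 and 0.56.

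Scd1, on chromosome 19 from 44394451 to 44407709, went the other way. It had 85.1, 3.26 and 0.880 CPM in control blood and 156, 3.59 and 4.68 CPM in Atg5-knockout blood, against at most 1.01 CPM in bone marrow, so every blood library lay above every bone marrow library of its genotype, and replicate 1 of each blood group stood far above the other 4 blood libraries. The log2 fold change was 5.74 in control mice (SE 1.54, edgeR's adjusted p = 0.0203) and 6.30 in Atg5-knockout mice (SE 1.54, edgeR's adjusted p = 0.00886). Without blood replicate 1 it was 1.88 and 2.56 and was still called (edgeR's adjusted p = 0.0238 and 0.0013), whereas limma-voom on all 6 libraries did not call it in either genotype (adjusted p = 0.222 and 0.136). Among 10050 genes ranked by the ratio of the lower of these libraries to the highest of the other blood libraries, with 0.5 CPM added to both, Scd1 came second with a ratio of 16.5, after the B-cell gene Ms4a1 with 22.0 and ahead of Blk, Cd79a and Pax5. The share of the 8 B-cell genes was high in the same 2 libraries, while the 12 adipocyte genes, a list added after these values were seen, took 0.0289% and 0.0213% of the counts there and 0.0271 to 0.0371% in the other blood libraries. T-cell genes took 0.0255% and 0.0145% there and 0.00206 to 0.00427% in the other blood libraries. The part of B or T cells in the Scd1 counts was not tested.

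**Figure D4:**
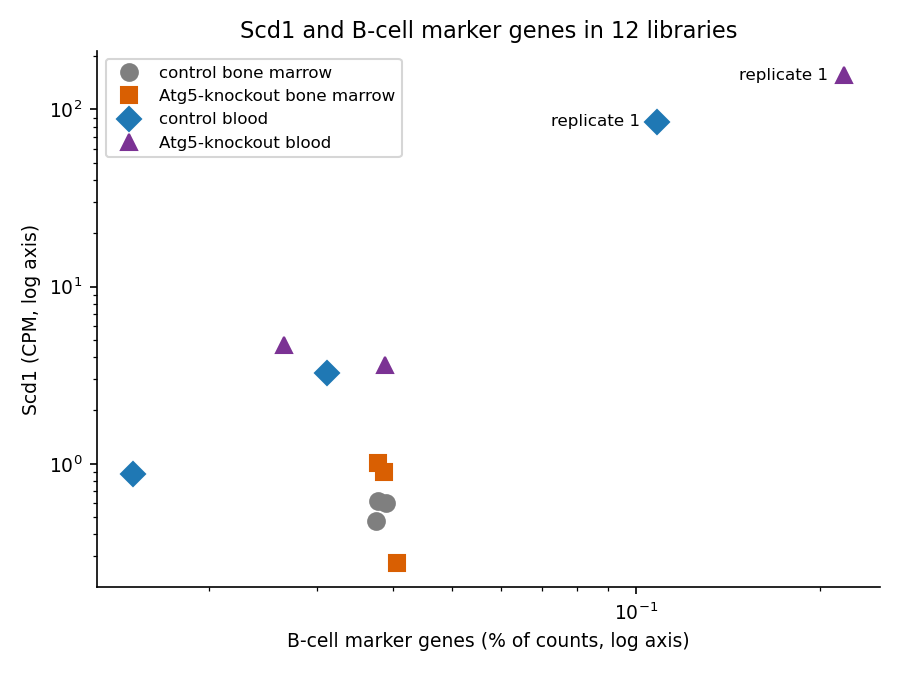
Scd1 (CPM, log axis) against the share of counts on 8 B-cell genes (percent, log axis) in each of the 12 libraries. Replicate 1 of control blood (85.1 CPM, 0.108%) and of Atg5-knockout blood (156 CPM, 0.219%) stood apart from the other 10 libraries, which had at most 4.68 CPM of Scd1.

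The enzymes that make the chain split. Acly rose from 348, 317 and 327 CPM in control bone marrow to 563, 499.7 and 509.7 CPM in control blood (log2 fold change 0.68, SE 0.15, edgeR's adjusted p = 0.00823), and from 319, 346 and 350.2 CPM to 496, 559 and 642 CPM in Atg5-knockout mice (0.81, SE 0.13, edgeR's adjusted p = 0.00134). Fasn, the fatty acid synthase, fell in Atg5-knockout mice from 61.6, 79.3 and 62.8 CPM to 24.5, 24.1 and 12.4 CPM (-1.67, SE 0.25, edgeR's adjusted p = 0.000664) and also fell in control mice, by 0.94 on the log2 scale. Acaca fell in Atg5-knockout mice from 24.1, 27.4 and 24.5 CPM to 13.97, 12.4 and 12.5 CPM (-0.90, SE 0.15, edgeR's adjusted p = 0.00127), and in control mice its log2 fold change of -0.51 did not pass the test.

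Of the regulators, Srebf2 rose in blood, from 189, 148 and 168 CPM to 356, 335 and 325 CPM in control mice (log2 fold change 1.03, SE 0.15, edgeR's adjusted p = 0.00144) and from 215, 236 and 256 CPM to 317, 380.2 and 375 CPM in Atg5-knockout mice (0.66, SE 0.13, edgeR's adjusted p = 0.00292). Srebf1 did not rise with it. It fell from 78.9, 82.1 and 77.7 CPM to 47.5, 43.9 and 39.6 CPM in Atg5-knockout mice (-0.80, SE 0.12, edgeR's adjusted p = 0.000721), and in control mice its log2 fold change was -0.24 and did not pass. Insig2 fell in both, from 18.9, 19.6 and 19.2 CPM to 7.16, 10.4 and 9.73 CPM in control mice (-1.07, SE 0.21, edgeR's adjusted p = 0.00495) and from 16.01, 18.2 and 17.2 CPM to 7.45, 10.4 and 8.26 CPM in Atg5-knockout mice (-0.91, SE 0.19, edgeR's adjusted p = 0.00385). Insig1, itself a target of the SREBPs, had log2 fold changes of 0.32 and 0.10 and did not pass. Stard4 fell in control mice from 62.8, 61.6 and 66.1 CPM to 31.5, 36.4 and 34.4 CPM (-0.88, SE 0.15, edgeR's adjusted p = 0.00221), and had -0.56 in Atg5-knockout mice, where its blood libraries ran from 27.5 to 66.0 CPM.

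In the mevalonate pathway Acat2 had the clearest fall, from 13.1, 13.8 and 14.4 CPM to 5.98, 5.20 and 4.40 CPM in control mice (log2 fold change -1.39, SE 0.23, edgeR's adjusted p = 0.00237) and from 13.8, 14.001 and 14.3 CPM to 4.88, 5.57 and 3.28 CPM in Atg5-knockout mice (-1.55, SE 0.23, edgeR's adjusted p = 0.000769). Idi1 fell in control mice from 6.11, 3.71 and 6.26 CPM to 1.07, 2.51 and 1.76 CPM (-1.56, SE 0.39, edgeR's adjusted p = 0.0154). Hmgcs1, whose promoter stretch with the sterol regulatory element is printed above, fell from 41.2, 51.6 and 57.8 CPM to 29.2, 35.5 and 29.4 CPM in control mice (-0.66, SE 0.18, edgeR's adjusted p = 0.0227). Neither of these passed in Atg5-knockout mice, where they had -1.12 and -0.41. Mvd rose by 0.64 in control mice, whereas Mvk and Pmvk passed in neither genotype.

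The enzymes from squalene to cholesterol had smaller median log2 fold changes (-0.46 in control and -0.53 in Atg5-knockout mice) than the elongases and desaturases (-1.24 and -1.62). In control mice 2 of 9 were lower in blood, Msmo1 (-0.80) and Cyp51 (-0.73), which both act in removing the methyl groups of lanosterol, and none was higher. In Atg5-knockout mice 5 of 9 were lower, Lss, Hsd17b7, Msmo1, Sqle and Dhcr7, with log2 fold changes from -0.97 to -0.53. Lss went from 14.3, 14.8 and 19.2 CPM to 8.03, 8.21 and 8.46 CPM (-0.90, SE 0.19, edgeR's adjusted p = 0.00430). Nsdhl, Sc5d and Fdft1 passed in neither genotype. The summed level of the 9 enzymes was 124 ± 13.996 TPM in control bone marrow and 75.3 ± 21.3 TPM in control blood, and 159 ± 19.6 TPM and 116 ± 22.4 TPM in the Atg5-knockout mice. For the fatty acid chain enzymes, led by Acly, the sum was higher in blood, with 157 ± 11.1 TPM against 189 ± 8.75 TPM in control mice and 162 ± 16.5 TPM against 241 ± 17.6 TPM in Atg5-knockout mice. These sums carry no TMM factors, unlike the fold changes, and the effect of scaling on the sums was not tested.

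**Figure D5:**
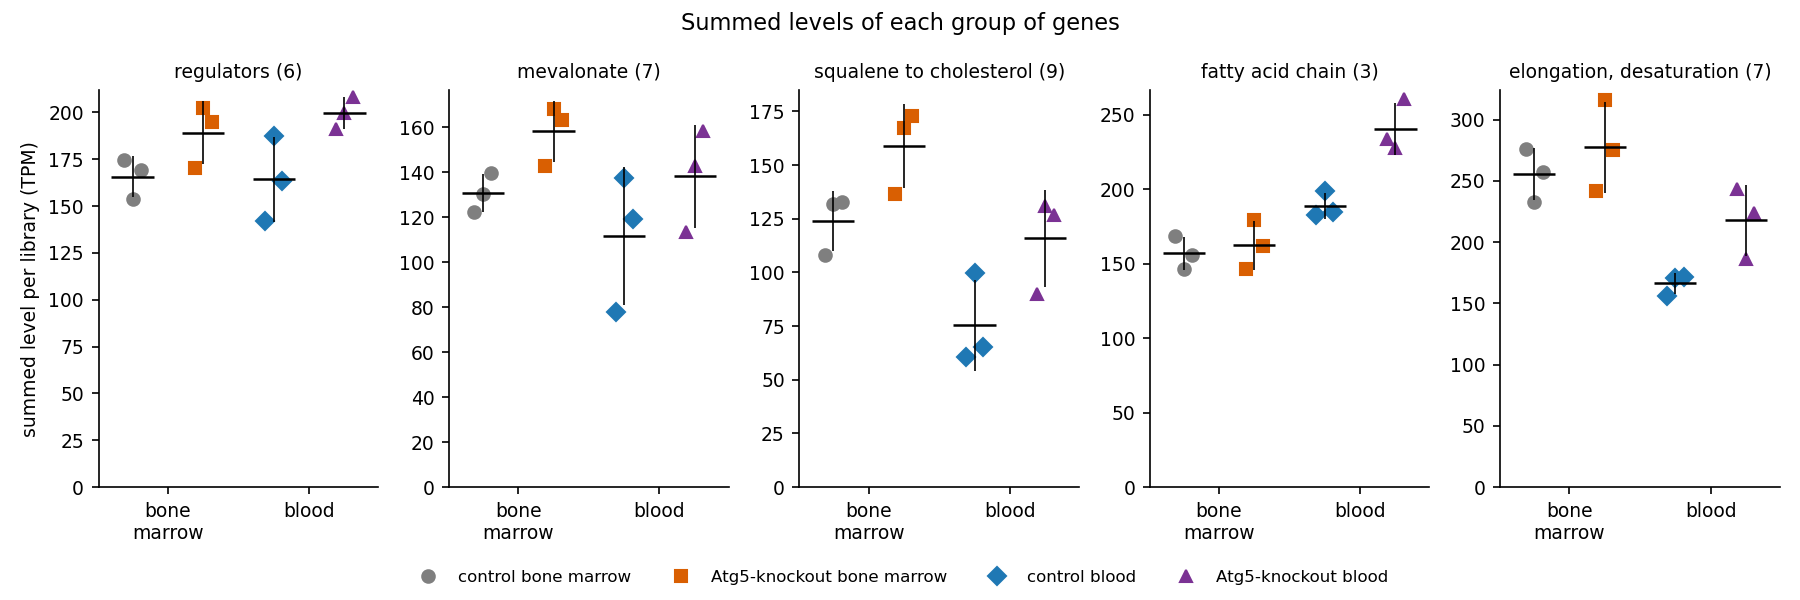
Summed level of each group of genes (TPM) in each library, with the number of genes in parentheses, a horizontal bar for the mean and a vertical bar for 1 SD of 3 libraries. TPM carry no TMM factors. On this scale and within each genotype, the squalene-to-cholesterol sum (9 enzymes) was lower in all blood libraries than in all bone marrow libraries. The sum of the 3 chain enzymes, most of it Acly, was higher in blood in both genotypes, while Fasn and Acaca had lower mean TPM there.

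The proliferation genes differed between the tissues in the same direction as most members, all 16 lower in blood in both genotypes with median log2 fold changes of -4.26 and -4.55, and their part in the values of the members was not tested. Calls among the members also rested on few libraries. In control mice 9 of the 16 calls were lost when 1 of the 6 libraries was left out, those of Acly, Cyp51, Elovl6, Fasn, Hmgcs1, Idi1, Msmo1, Mvd and Scd1, with the other 7 kept. In Atg5-knockout mice 5 of 18 were lost, those of Dhcr7, Fdps, Hsd17b7, Msmo1 and Sqle. Without control bone marrow replicate 3 the count of members lower in control blood was 6 rather than 12. Over all genes the lower calls went from 2466 of 13669 to 1464 of 14162. The count of members higher was 2, 1 and 1 rather than 4 without control bone marrow replicates 1, 2 and 3. Higher calls over all genes were then 1402 of 14201, 1329 of 14227 and 1163 of 14162, against 2212 of 13669. In Atg5-knockout mice the count of members higher was 6 rather than 3 without blood replicate 1. There the higher calls over all genes went from 3256 of 13853 to 3684 of 14277.

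Other genes of these pathways were taken from lists written by function. Their counts stand against 16.2% of all genes higher and 18% lower in blood of control mice, and 23.5% and 24.1% in Atg5-knockout mice. Of 16 further genes of sterol synthesis, uptake and control, 3 were higher and 1 lower in blood of control mice, and 4 higher and 3 lower in Atg5-knockout mice. Rnf139, a ubiquitin ligase of the endoplasmic reticulum, rose by 0.69 on the log2 scale in control mice and had 0.15 in Atg5-knockout mice, which did not pass.

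Of 22 tested genes from a list of 29 for fatty acid activation, elongation and triglyceride synthesis, 6 were higher and 7 lower in blood of control mice, and 5 higher and 10 lower in Atg5-knockout mice. Pparg, the nuclear receptor of fat storage, had the lowest p in control mice and rose by 2.72 on the log2 scale. Hacd3 and Hacd1, the dehydratases of the elongation cycle, fell in control mice with -1.62 and -2.55, and Fads3, a relative of Fads1 and Fads2, with -3.004. In Atg5-knockout mice these 3 fell with -1.57, -2.73 and -3.18.

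Of 15 tested genes for sterol efflux and storage, 4 were higher and 2 lower in blood of control mice, and 6 higher and 2 lower in Atg5-knockout mice. Nr1h3, a liver X receptor, rose with 2.26 and 1.72, and in control mice Cyp27a1, a sterol hydroxylase, rose with 1.40, Rxra, the partner receptor of Nr1h3, with 0.84, and Abcg1 fell with -0.88. Between genotypes in bone marrow 1 of these 15 genes passed, Abca1, the cholesterol exporter, named after its values were seen. It was lower in the knockout, 5.62 ± 1.42 CPM (SD, n = 3) against 14.2 ± 4.39 CPM, with a log2 fold change of -1.38 (SE 0.23, edgeR's adjusted p = 0.0265). Abcg1 had -0.61 there (SE 0.13, edgeR's adjusted p = 0.0774). No gene of the other lists passed between genotypes in bone marrow, and no listed gene passed in blood. Of 17 tested genes of fatty acid oxidation, 3 were higher and 2 lower in blood of control mice, and 3 higher and 4 lower in Atg5-knockout mice. Slc25a20 and Cpt1a, the carnitine carrier and the transferase that admit fatty acids to mitochondria, rose with 1.08 and 1.05 in control mice, and Decr1 and Cpt2 fell with -1.10 and -0.96.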

How the data were processed

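The authors sequenced polyadenylated RNA from one end of each fragment with a kit that keeps strand, aligned the reads with HISAT2 2.2.1 and counted them per gene with featureCounts (per the submitters' processing notes). The authors deposited raw counts without normalization. The file header names the Ensembl annotation of GRCm38 and no option for strand or for reads with several places, so that such reads were not counted and overlapping antisense genes were not separated, whereas the study's methods name GRCm39. The 49674 symbols of the table's 53801 identifiers came from GENCODE, and coordinates are those of the table.

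Counts of the 6 libraries of each comparison were fitted with edgeR 4.0.16 in R 4.3.3 (TMM factors, its filter on low counts with a minimum count of 10 and total of 15, prior count 0.125, quasi-likelihood test, Benjamini-Hochberg adjustment over all genes tested). A gene was called at an adjusted p under 0.05. The interaction used all 12 libraries. SE is the log2 fold change divided by the root of the F statistic. CPM carry TMM factors of 12 libraries, and TPM use the table's gene lengths and no TMM factors. Scripts were tested on simulated counts. Alternatives used DESeq2 1.42.0 and limma 3.58.1. The labels do not say that libraries of a group came from separate animals, so p-values measure the spread between these libraries, which may be technical. Pseudogenes of the members were matched by BLAST at 90% identity over 50% of their length.

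The members, the lists and the rule for named genes were chosen with earlier results of these data known. The rule gives full statistics for at most 12 members per comparison, those called with the lowest p, or the 4 of lowest p where fewer than 4 were called, and names 4 genes of each list by p in control mice. Some genes that the rule names are not reported here. Genes named beyond it by a value were chosen after their values were seen. Deviations from group means of blood libraries with the same replicate number correlated across genotypes (0.60, 0.34 and 0.37). Knockout replicate 2 with control replicate 3 gave 0.20, and knockout replicate 3 with control replicate 2 gave 0.16. Replicate 1 with the other numbers gave -0.47 to -0.37. A pairing of blood libraries by number is read from the data and not from the labels, and is least clear for replicates 2 and 3. In bone marrow the correlations between libraries of the same number were -0.20, -0.15 and -0.003, and across tissues from -0.11 to 0.15, so those libraries share only a number. No pair of replicates agreed within sampling noise. The adipocyte list and the fit without both blood libraries of replicate 1 were added after the data were seen. Leaving out each library, other scalings and filters, and other tools were the alternatives tried.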

Additional observations from a re-analysis of the deposited data

How the results depend on the processing

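Between genotypes in bone marrow, where no member was called, DESeq2 called 3, the fit without a filter 3, and fits that left out 1 library between 0 and 2, with the 2, Srebf2 and Fads2, called without control bone marrow replicate 1. Members called higher in blood of control mice, 4 in all, numbered 2 with library size alone and between 1 and 4 when 1 library was left out, and those called lower, 12 in all, between 6 and 12, with 18 by library size alone. Over all 13669 genes the main fit called 2212 higher and 2466 lower, and library size alone 1308 and 3906. Fits that left out 1 library called 1163 to 2808 genes higher and 1464 to 3118 lower. In Atg5-knockout mice members called higher, 3 in all, numbered 5 with a filter of 1 CPM in 3 libraries and between 3 and 6 when 1 library was left out, the 6 without blood replicate 1, and 2 with limma-voom, and those called lower, 15 in all, numbered between 10 and 18 and 20 by library size alone. Over all 13853 genes the main fit called 3256 higher and 3336 lower, library size alone 2258 and 4333, and limma-voom 3238 higher. The filter of 1 CPM called 3125 of 12271 genes higher. Fits that left out 1 library called 2228 to 3684 genes higher and 2356 to 4072 lower. The cause of these changes was not tested. The interaction (15 genes over all with DESeq2 and none with edgeR) and the comparison in blood gave no called member under any alternative. No call changed its direction in any alternative, and 115 of 1904 uncalled values changed sign. With the replicate number as a block the counts of called members were 0 in bone marrow and 0 in blood between genotypes, 4 higher and 13 lower between tissues in control mice, 4 higher and 17 lower in Atg5-knockout mice, and 0 for the interaction. Between tissues the block called 2274 genes higher and 2638 lower of 13669 in control mice. In Atg5-knockout mice it called 2800 higher and 3117 lower of 13853. The block changed no call of a member in blood between genotypes, where libraries of the same number deviated together. Elsewhere libraries share only a number. By CPM in place of TPM, Acly stayed first in control bone marrow and Elovl1 went from place 2 to 6. Over all genes, the 48 calls between genotypes in bone marrow became 196 with DESeq2, 420 without a filter, 12 with all 12 libraries in one fit, 23 with the block, and 18 to 219 when 1 library was left out, and the 5 in blood became 22, 77, 16, 10 and 2 to 6. With 3 libraries a group, a log2 fold change of 0.52 for Sqle in blood had a standard error of 0.29, against 0.11 in bone marrow.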
